A study of Mus musculus with 3 samples.

Results

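Aminoacyl-tRNA synthetases attach each amino acid to its transfer RNA (tRNA), the step that supplies the ribosome with charged tRNAs. Animal cells carry separate nuclear genes for most of the enzymes that work in the cytosol and for those that work inside mitochondria. The set described here was every row of the gene count table whose symbol was one of 36 synthetase genes, and all 36 were found among the 20162 genes of the table. Of these, 20 encode cytosolic enzymes or subunits and 16, whose symbols end in 2, encode mitochondrial enzymes.

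The libraries came from C2C12 cells, a mouse myoblast line that forms multinucleated myotubes when serum is lowered. A population infected with a lentivirus for Tead4 shRNA A, a population with Tead4 shRNA B and a population with a control shRNA each gave 1 library of polyadenylated RNA. All 3 populations carried a lentiviral vector, were kept in puromycin and were differentiated for 7 days in 2% horse serum. The comparison asks which genes depend on Tead4, which encodes a transcription factor that binds DNA through its TEA domain. The labels name no further cultures of any population, so the spread between the 2 Tead4 shRNA libraries stands in for replicate error, which the single control library was taken to share. These 2 libraries carry different shRNAs, so their spread mixes differences between shRNAs with differences between cultures. A p-value therefore measures only the spread between these libraries. For each gene, the test used below moderates that spread toward the spread shared over genes. That shared part has 20.9 prior degrees of freedom, against 1 residual degree of freedom for the gene itself.

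Total counts were 19918954 with shRNA A, 15594305 with shRNA B and 16412139 in the control library. Tead4 itself had 19.7 CPM with shRNA A, 10.8 CPM with shRNA B and 78.2 CPM in the control library (CPM, counts relative to the TMM-scaled library total). The quasi-likelihood test of edgeR put its log2 fold change at -2.35 (SE 0.27) with an adjusted p of 2.82e-06. Of 12 myotube markers, all detected, 6 fell and 0 rose, while 12 of 12 markers of dividing cells and 4 of 7 markers of reserve cells rose. Over all tested genes, 4.48% fell and 5.34% rose. The dividing-cell markers summed to 342 and 347 CPM with shRNAs A and B against 113 CPM in the control library, and the myotube markers to 14346 and 17554 CPM against 24746 CPM. Reserve-cell markers summed to 530.2 and 513 CPM with the shRNAs and 349 CPM in the control library. The 4 fibroblast markers in the table summed to 27.9, 18.2 and 23.5 CPM in the shRNA A, shRNA B and control libraries, with 0 of 3 tested called. In bulk RNA, a change in the mix of cells and a change in RNA per cell cannot be told apart, and the part of these marker shifts in the values below was not tested.

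The synthetases divide into 2 unrelated structural classes. Class I enzymes use a Rossmann-fold catalytic domain, and class II enzymes use a different fold built on antiparallel strands. In mammals, several cytosolic enzymes of both classes join a multi-synthetase complex held together by the scaffold proteins encoded by Aimp1, Aimp2 and Eef1e1. Many cytosolic synthetase genes are known targets of ATF4, the transcription factor that is made when the kinases of the integrated stress response phosphorylate eIF2alpha. ATF4 acts with C/EBP proteins at a composite DNA element known as the C/EBP-ATF response element.

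That element was searched for as TGATGNAA, on both strands, in promoter windows of 300 bases (250 before and 50 after the annotated start site, RefSeq, GRCm38.p6). Windows were held for 26 of the 36 genes. The letters occurred in 5 of 12 cytosolic genes (Aars, Gars, Iars, Tars and Yars) and in 0 of 14 mitochondrial genes, against 4.51% of all 27025 genes with a RefSeq window. The matches are shown because all 5 genes belong to those with lower counts in the Tead4 shRNA libraries. The match nearest to the start site is given for each gene, written as 30 bases 5′ to 3′ on the strand that reads TGATGNAA, with the match in capitals.

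Aars, chr8:111033840-111033869, minus strand: tcagagcgctcTGATGAAAagtgacccgct
Gars, chr6:55037960-55037989, minus strand: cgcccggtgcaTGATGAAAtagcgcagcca
Iars, chr13:49682126-49682155, minus strand: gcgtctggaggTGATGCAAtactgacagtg
Tars, chr15:11399655-11399684, plus strand: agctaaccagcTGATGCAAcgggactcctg
Yars, chr4:129189895-129189924, plus strand: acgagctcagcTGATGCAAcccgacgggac

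Counted along the gene with the start site as 0, the matches began at 9 in Aars, at -30 in Gars, at 7 in Iars, at -15 in Tars and at 3 in Yars. Each of these lay close to the start site. Of the 12 cytosolic genes with a window, 7 were called lower in the fit described next and 5 of these held a match. Eprs and Sars were called lower with no match in the window, and Dars, Farsa, Farsb, Kars and Qars were neither called lower nor held one. Over genes with a window and a single tested row, the letters occurred in 8.29% of 434 genes called lower, in 2.41% of 497 called higher and in 2.57% of 7654 not called. These shares cover tested genes only, whereas the 4.51% above covers all genes with a window, tested or not. A match describes letters in the reference and is not evidence of binding in these cells. The windows use a later build than the mm9 build named in the submitters' processing notes, and no coordinates of the count table were used.

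**Figure D1:**
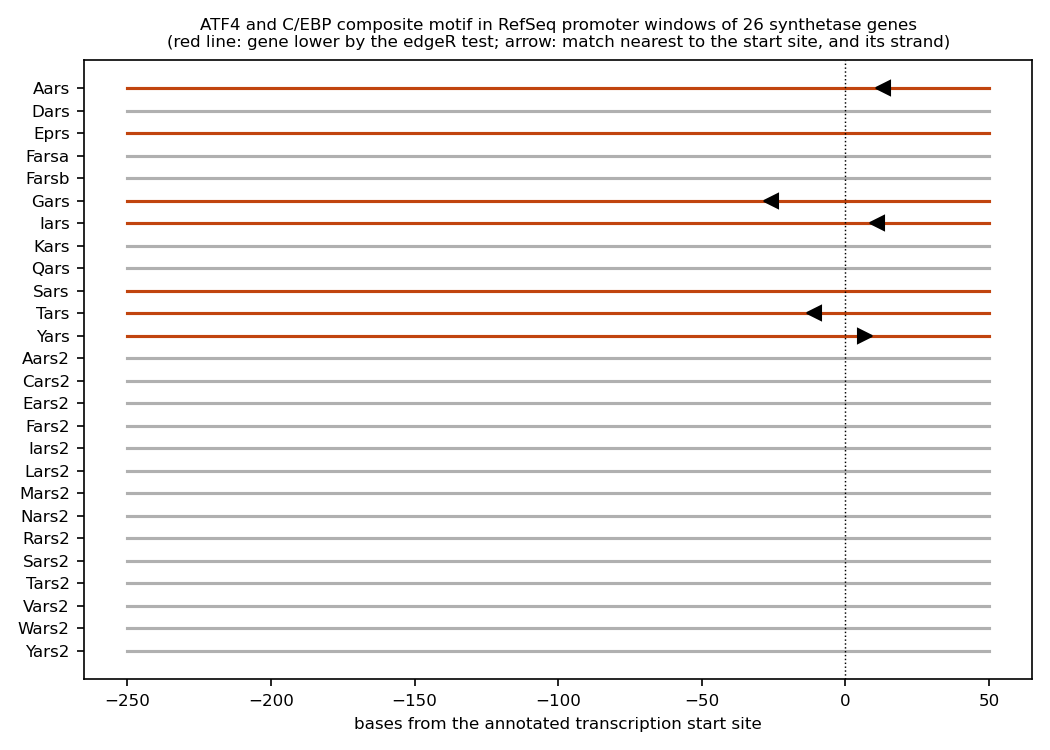
Position of the 8-letter composite motif match nearest to the start site (arrows, pointing in the direction of the strand that reads it) in bases from the annotated start site along the gene, in the promoter windows of 26 synthetase genes, with cytosolic genes above mitochondrial genes. Red lines mark the 7 genes called lower by the edgeR test, of which 5 carry arrows; none of the 14 mitochondrial windows does.

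Cytosolic synthetase genes were lower in the Tead4 shRNA libraries, and mitochondrial ones were not called. In the fit of the 2 Tead4 shRNA libraries against the control library, 13 of 20 cytosolic genes fell and 0 rose. The median log2 fold change of the 20 was -1.15. Of the 16 mitochondrial genes, 0 fell and 0 rose, and their median was -0.13. At an unadjusted p under 0.05 the counts were 14 cytosolic genes and 1 mitochondrial gene, against 3143 of all 14478 tested genes. DESeq2 also called 0 mitochondrial genes. All 36 genes passed the filter on low counts. For comparison, 4.48% of the 14478 tested genes fell and 5.34% rose, and their median was 0.02. The difference between the compartments has no test of its own.

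With each shRNA library set alone against the control library, the counts for both shRNAs were alike. A change of at least 2-fold, with a 95% exact counting interval that excluded no change, was found downward for 12 cytosolic genes with shRNA A and for 12 with shRNA B, where 5.88% and 4.74% of all tested genes met this rule. No mitochondrial gene met it downward. Upward, 0 cytosolic genes met it, and 1 mitochondrial gene, Sars2, did with shRNA B but fell just short with shRNA A, where 8.70% of all tested genes met the rule with shRNA A and 6.41% with shRNA B. Both ratios use the same control library, and neither has a replicate check. Median log2 ratios of the cytosolic genes were -1.16 with each shRNA, and those of the mitochondrial genes were -0.04 with shRNA A and -0.18 with shRNA B.

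**Figure D2:**
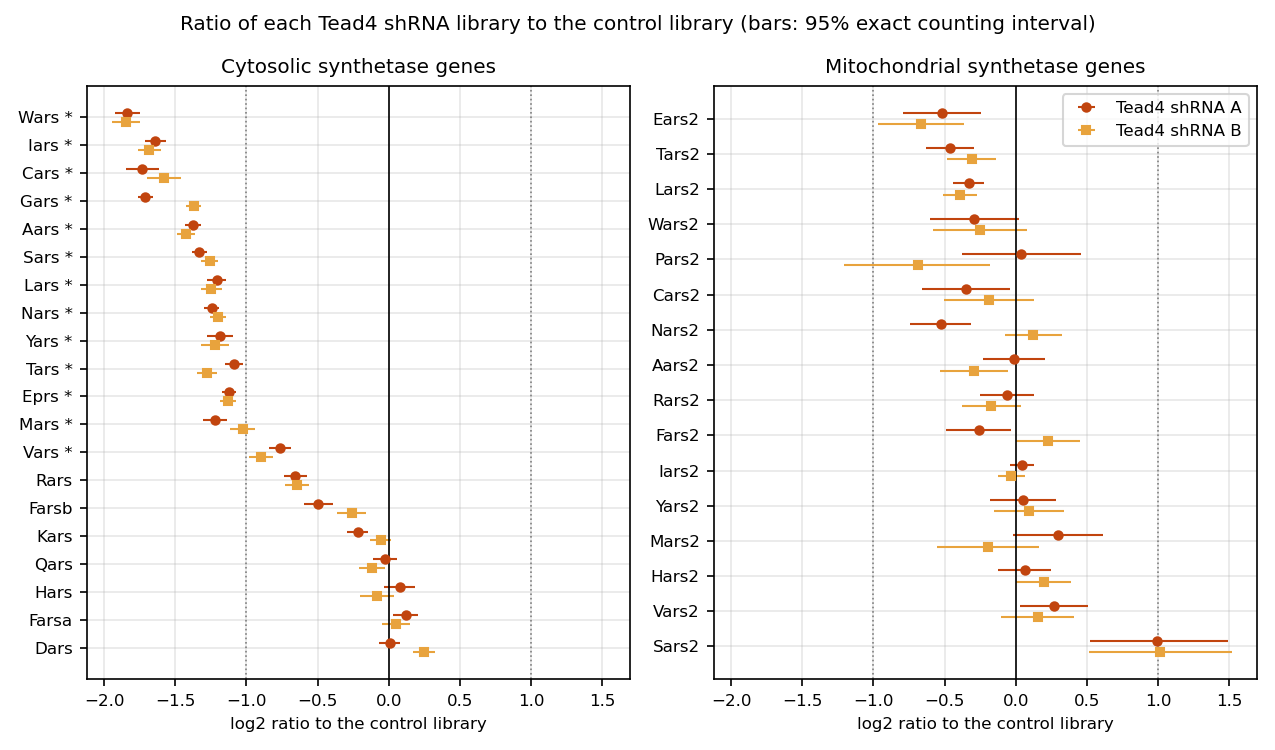
Log2 ratio of the Tead4 shRNA A (circles) and shRNA B (squares) libraries to the control library for 20 cytosolic (left) and 16 mitochondrial (right) synthetase genes, with 95% exact counting intervals; dotted lines mark 2-fold. Asterisks mark the 13 genes called lower by the edgeR test, which run from Wars at -1.84 and -1.85 to Vars at -0.77 and -0.90.

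The cytosolic genes also took a smaller part of all reads in both Tead4 shRNA libraries. They took 0.273% (95% exact interval 0.270 to 0.275) of all counted reads in the shRNA A library and 0.281% (0.279 to 0.284) in the shRNA B library, against 0.552% in the control library (0.549 to 0.556). Mitochondrial genes took 0.0413% (0.0405 to 0.0423) in the shRNA A library and 0.0416% (0.0406 to 0.0426) in the shRNA B library, against 0.0434% in the control library (0.0424 to 0.0444). Among synthetase reads alone, the cytosolic share was 86.8% (86.6 to 87.1) for shRNA A and 87.1% (86.8 to 87.4) for shRNA B, against 92.7% in the control library (92.5 to 92.9). This share does not depend on the scaling between libraries. PCR copies cannot be told from separate molecules here, so all intervals cover counting error only.

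Per kilobase of merged exons (GENCODE M21 gene models), cytosolic genes had a median level of 25.8 CPM per kilobase with shRNA A, 24.9 with shRNA B and 46.0 in the control library. The medians of the mitochondrial genes on this scale were 3.05 with shRNA A, 3.66 with shRNA B and 3.44 in the control library. The cytosolic medians thus stayed above the mitochondrial ones in all 3 libraries. Among cytosolic genes, Gars had the highest level per length in each library (65.5 and 82.9 with the shRNAs against 215 in the control library), and among mitochondrial genes Iars2 did (14.0 and 13.3 against 13.6).

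**Figure D3:**
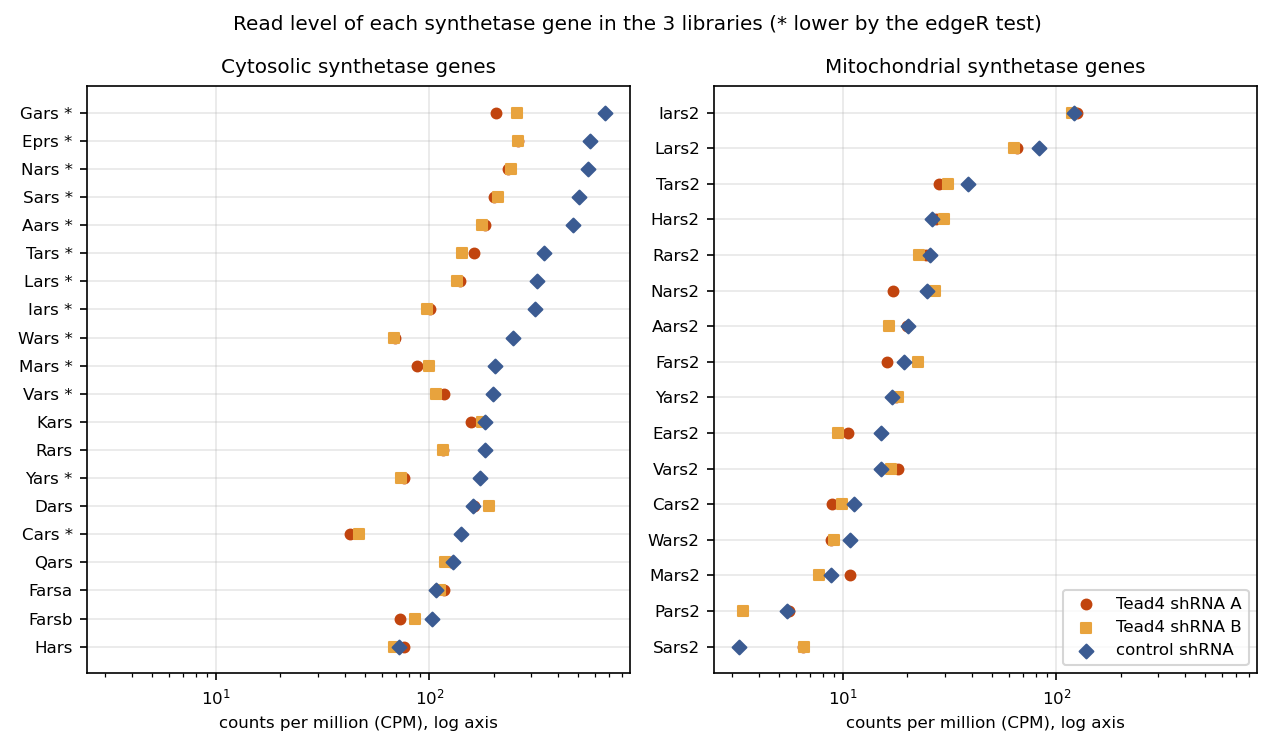
CPM (log axis) of each cytosolic (left) and mitochondrial (right) synthetase gene in the Tead4 shRNA A, Tead4 shRNA B and control libraries, ordered by the control value. The control points of the 13 genes marked with an asterisk lie to the right of both shRNA points, as for Gars at 204 and 259 CPM against 669.6 CPM; most mitochondrial points lie close together.

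Of the 10 cytosolic class I genes, 8 fell. The fused Eprs is counted here by its glutamyl part, although its prolyl part belongs to class II. Wars, the tryptophanyl enzyme, which is also known as an interferon-induced gene, had the lowest fold change of the 36. It had 1386 and 1079 reads with shRNAs A and B against 3956 in the control library, or 68.9 and 68.5 CPM against 246 CPM (log2 fold change -1.84, SE 0.21, adjusted p = 3.73e-06). Its log2 ratio was -1.84 (-1.93 to -1.75) for shRNA A and -1.85 (-1.95 to -1.75) for shRNA B. Both shRNA libraries thus held a similar part of the control level, 28.0% and 27.8%.

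Iars, which charges isoleucine, had 2027 and 1543 reads with shRNAs A and B against 5046 in the control library, or 101 and 97.9 CPM against 314 CPM (log2 fold change -1.66, SE 0.22, adjusted p = 2.10e-05). Its ratios were -1.64 (-1.72 to -1.57) for shRNA A and -1.68 (-1.77 to -1.60) for shRNA B. The isoleucine enzyme was thus lower than control by nearly the same amount with both shRNAs. Cars, which charges cysteine, had 849 and 740 reads against 2253, or 42.2 and 47.0 CPM against 140.3 CPM (-1.65, SE 0.21, adjusted p = 1.39e-05). Its ratios were -1.73 (-1.85 to -1.62) for shRNA A and -1.58 (-1.70 to -1.46) for shRNA B. Cars was the least abundant of the 13 genes that fell, and in it both shRNA libraries lay far below the control library.

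Lars, the leucyl enzyme, had 2789 and 2129 reads with shRNAs A and B against 5150 in the control library, or 139 and 135 CPM against 321 CPM (log2 fold change -1.23, SE 0.22, adjusted p = 7.55e-04). The ratios of Lars were -1.21 (-1.28 to -1.14) for shRNA A and -1.25 (-1.32 to -1.17) for shRNA B. Yars, which charges tyrosine, had 1523 and 1163 reads against 2767, or 75.7 and 73.8 CPM against 172 CPM (-1.20, SE 0.21, adjusted p = 6.28e-04). Lars and Yars stood at similar parts of the control level, 43.2% and 42.1% for Lars and 43.9% and 42.8% for Yars with shRNAs A and B. The ratios of Yars were -1.19 (-1.28 to -1.10) for shRNA A and -1.22 (-1.32 to -1.12) for shRNA B.

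Eprs, a fused enzyme for glutamate and proline, had 5245 and 4096 reads with shRNAs A and B against 9132 in the control library, or 261 and 259.9 CPM against 569 CPM (log2 fold change -1.13, SE 0.23, adjusted p = 0.00224). Its ratios were -1.13 (-1.17 to -1.08) for shRNA A and -1.13 (-1.18 to -1.08) for shRNA B, so the 2 shRNA libraries were nearly equal. Mars, which charges methionine on both initiator and elongator tRNAs, had 1752 and 1573 reads against 3263, or 87.1 and 99.8 CPM against 203 CPM (-1.12, SE 0.22, adjusted p = 0.00157). The ratios of Mars were -1.22 (-1.31 to -1.14) for shRNA A and -1.03 (-1.11 to -0.94) for shRNA B. Mars was somewhat lower with shRNA A than with shRNA B, and both lay below control. In the later annotation, Mars shares 68 exon bases (1.99% of its exon length) with Ddit3 on the opposite strand. Ddit3, which encodes the stress factor CHOP, fell to 17.4 and 16.6 CPM with shRNAs A and B against 458 CPM in the control library (log2 fold change -4.75, adjusted p = 5.75e-12). The library kit does not mark strand, so the part of Ddit3 reads in the Mars count was not tested.

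Vars, which charges valine, showed the smallest change of the 13 genes that fell. It had 2359 and 1686 reads with shRNAs A and B against 3204 in the control library, or 117 and 107 CPM against 199.5 CPM (log2 fold change -0.83, SE 0.22, adjusted p = 0.0167), with ratios of -0.77 (-0.84 to -0.69) for shRNA A and -0.90 (-0.99 to -0.81) for shRNA B. Rars, the arginyl enzyme, stood just outside the threshold. It had 2328 and 1834 reads against 2928, or 116 and 116 CPM against 182 CPM (-0.65, SE 0.22, adjusted p = 0.0634). Its ratios were -0.66 (-0.74 to -0.58) for shRNA A and -0.65 (-0.73 to -0.56) for shRNA B, so both counting intervals lay below 0 although the test was not passed. Qars, which charges glutamine, had 126 and 119 CPM against 129 CPM (-0.07, SE 0.22, adjusted p = 0.909) and was not called. Its ratios were -0.02 (-0.11 to 0.06) for shRNA A and -0.12 (-0.21 to -0.03) for shRNA B.

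Of the 10 cytosolic class II genes, 5 fell. Gars, the glycyl enzyme, whose gene supplies both the cytosol and the mitochondrion, had 4111 and 4076 reads with shRNAs A and B against 10751 in the control library, or 204 and 259 CPM against 669.6 CPM (log2 fold change -1.53, SE 0.24, adjusted p = 1.47e-04). Its ratios were -1.71 (-1.76 to -1.66) for shRNA A and -1.37 (-1.42 to -1.32) for shRNA B. Gars was thus lower with shRNA A than with shRNA B beyond counting error (log2 of shRNA A over shRNA B -0.34, interval -0.40 to -0.28). Aars, the alanyl enzyme, had 3672 and 2783 reads against 7604, or 183 and 177 CPM against 474 CPM (-1.40, SE 0.23, adjusted p = 2.42e-04). Its ratios were -1.38 (-1.43 to -1.32) for shRNA A and -1.42 (-1.49 to -1.36) for shRNA B. A part of its exon length, 14.3%, overlaps Exosc6 on the same strand in the later annotation, and the number of Exosc6 reads in the Aars count was not tested.

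Sars, which charges both serine and selenocysteine tRNAs with serine, had 4024 and 3313 reads with shRNAs A and B against 8082 in the control library, or 200.04 and 210.2 CPM against 503 CPM (log2 fold change -1.29, SE 0.23, adjusted p = 5.73e-04). Its ratios were -1.33 (-1.39 to -1.28) for shRNA A and -1.26 (-1.32 to -1.20) for shRNA B. Nars, which charges asparagine, had 4690 and 3792 reads against 8869, or 233 and 241 CPM against 552 CPM (-1.22, SE 0.23, adjusted p = 0.00107). Both genes were among the most read synthetases in the control library, and the counting intervals of their ratios lay below 0 with both shRNAs. The ratios of Nars were -1.24 (-1.30 to -1.19) for shRNA A and -1.20 (-1.25 to -1.14) for shRNA B. Tars, which charges threonine, had 3246 and 2232 reads against 5517, or 161 and 142 CPM against 344 CPM (-1.18, SE 0.23, adjusted p = 0.00127). Its ratios were -1.09 (-1.15 to -1.03) for shRNA A and -1.28 (-1.35 to -1.21) for shRNA B. Tars was the class II gene of these 5 with the smallest change, and it was lower with shRNA B than with shRNA A.

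The other 5 class II genes were not called. Dars, the aspartyl enzyme, had 162 and 191 CPM with shRNAs A and B against 161 CPM in the control library (log2 fold change 0.13, SE 0.23, adjusted p = 0.820), with ratios of 0.01 (-0.07 to 0.08) for shRNA A and 0.25 (0.17 to 0.32) for shRNA B. Kars, whose gene makes the lysyl enzyme of both compartments, had 157 and 176 CPM against 183 CPM (-0.14, SE 0.23, adjusted p = 0.810), with ratios of -0.22 (-0.29 to -0.14) for shRNA A and -0.06 (-0.13 to 0.02) for shRNA B. Hars, the histidyl enzyme, had 76.2 and 68.2 CPM against 72.2 CPM (-0.001, SE 0.22, adjusted p = 0.999), with ratios of 0.08 (-0.03 to 0.19) for shRNA A and -0.08 (-0.21 to 0.04) for shRNA B. Dars was slightly above control with shRNA B, Kars slightly below it with shRNA A, and Hars on both sides of it. Farsa and Farsb encode the 2 kinds of subunit of phenylalanyl-tRNA synthetase. Farsa had 117 and 112 CPM against 108 CPM (0.08, SE 0.22, adjusted p = 0.885), with ratios of 0.12 (0.03 to 0.21) for shRNA A and 0.05 (-0.05 to 0.15) for shRNA B. Farsb had 73.1 and 86.0 CPM against 103 CPM (-0.37, SE 0.22, adjusted p = 0.347), with ratios of -0.50 (-0.60 to -0.39) for shRNA A and -0.26 (-0.37 to -0.16) for shRNA B. The subunits thus gave counting intervals on different sides of 0 with shRNA A. Farsb shares 9.47% of its exon length with Sgpp2 on the opposite strand in the later annotation.

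The 7 cytosolic genes that were not called summed to 828 and 868 CPM with shRNAs A and B against 938 CPM in the control library, whereas the 13 that fell summed to 1873 and 1917 CPM against 4708 CPM. Gars and Kars, both of which serve the 2 compartments, thus stood on different sides of the threshold. The same was true within the multi-synthetase complex. Of its 8 enzyme genes, Eprs, Iars, Lars and Mars fell, and Dars, Kars, Qars and Rars were not called, with a median log2 fold change of -0.89. Of the 12 cytosolic genes outside the complex, 9 fell, with a median of -1.21. Class I and class II cytosolic genes had medians of -1.17 and -0.78, with the fused Eprs counted in class I. None of these splits has a test of its own.

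The scaffold genes of the complex were not called. Aimp1 had 69.4 and 67.8 CPM with shRNAs A and B against 79.7 CPM in the control library (log2 fold change -0.22, adjusted p = 0.639). Aimp2 had 26.7 and 42.9 CPM against 43.6 CPM (-0.33, adjusted p = 0.526). Eef1e1 had 17.9 and 30.8 CPM against 39.3 CPM (-0.69, adjusted p = 0.117). Aimp2 and Eef1e1 were lower with shRNA A than with shRNA B, at log2 ratios of -0.70 and -1.13 with shRNA A against -0.02 and -0.35 with shRNA B.

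The mitochondrial genes were less read, from 52 to 2503 reads per library, and their standard errors ran from 0.21 to 0.41, against 0.21 to 0.24 for the cytosolic genes. Among the 9 class I genes, Iars2, the isoleucyl enzyme, was the most abundant at 124 and 118 CPM with shRNAs A and B against 121 CPM in the control library (log2 fold change 0.01, SE 0.22, adjusted p = 0.991). Its ratios were 0.05 (-0.04 to 0.13) for shRNA A and -0.03 (-0.12 to 0.06) for shRNA B. Iars2 shares 22.9% of its exon length with Rab3gap2 on the opposite strand in the later annotation, so its count is uncertain. Lars2, the leucyl enzyme, had 65.7 and 63.1 CPM against 82.6 CPM (-0.36, SE 0.21, adjusted p = 0.356), with ratios of -0.33 (-0.44 to -0.22) for shRNA A and -0.39 (-0.51 to -0.27) for shRNA B. Ears2, the glutamyl enzyme, had 10.5 and 9.46 CPM against 15.0 CPM (-0.59, SE 0.29, adjusted p = 0.235), with ratios of -0.52 (-0.79 to -0.24) for shRNA A and -0.67 (-0.97 to -0.37) for shRNA B. Both counting intervals of Lars2 and of Ears2 lay below 0, but neither gene passed the test.

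Rars2, the arginyl enzyme, had 24.5 and 22.7 CPM with shRNAs A and B against 25.6 CPM in the control library (log2 fold change -0.12, SE 0.24, adjusted p = 0.850), with ratios of -0.06 (-0.25 to 0.13) for shRNA A and -0.17 (-0.38 to 0.04) for shRNA B. Yars2, the tyrosyl enzyme, had 17.6 and 18.1 CPM against 17.0 CPM (0.07, SE 0.26, adjusted p = 0.920), with ratios of 0.05 (-0.18 to 0.28) for shRNA A and 0.09 (-0.15 to 0.34) for shRNA B. In Rars2 and Yars2 all 4 counting intervals included no change. Vars2, the valyl enzyme, had 18.0 and 16.7 CPM against 15.0 CPM (0.21, SE 0.26, adjusted p = 0.729), with ratios of 0.27 (0.03 to 0.51) for shRNA A and 0.15 (-0.10 to 0.41) for shRNA B. Wars2, the tryptophanyl enzyme, had 8.75 and 9.01 CPM against 10.7 CPM (-0.27, SE 0.31, adjusted p = 0.698), with ratios of -0.29 (-0.60 to 0.02) for shRNA A and -0.25 (-0.58 to 0.08) for shRNA B. Vars2 was slightly above control and Wars2 slightly below it with both shRNAs, and neither was called. Cars2, the cysteinyl enzyme, had 8.85 and 9.90 CPM against 11.3 CPM (-0.27, SE 0.30, adjusted p = 0.698), with ratios of -0.35 (-0.66 to -0.04) for shRNA A and -0.19 (-0.51 to 0.13) for shRNA B. Mars2, the methionyl enzyme, had 10.8 and 7.68 CPM against 8.78 CPM (0.08, SE 0.33, adjusted p = 0.936), with ratios of 0.30 (-0.02 to 0.61) for shRNA A and -0.19 (-0.56 to 0.17) for shRNA B. The control value of Mars2 lay between those of the 2 shRNA libraries.

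Among the 7 mitochondrial class II genes, Sars2, the seryl enzyme, had the highest ratios. It had 130 and 103 reads with shRNAs A and B against 52 in the control library, or 6.46 and 6.54 CPM against 3.24 CPM (log2 fold change 1.003, SE 0.40, adjusted p = 0.126). Its ratios were 0.997 (0.52 to 1.49) for shRNA A and 1.01 (0.52 to 1.52) for shRNA B. Both shRNA libraries stood at about 2 times the control level, but the gene did not pass the test. Tars2, the threonyl enzyme, had 28.0 and 31.2 CPM against 38.6 CPM (-0.38, SE 0.23, adjusted p = 0.364), with ratios of -0.46 (-0.63 to -0.29) for shRNA A and -0.31 (-0.48 to -0.14) for shRNA B. Hars2, the histidyl enzyme, had 27.1 and 29.8 CPM against 26.0 CPM (0.13, SE 0.24, adjusted p = 0.827), with ratios of 0.06 (-0.12 to 0.25) for shRNA A and 0.20 (0.003 to 0.39) for shRNA B. Hars and Hars2 share 195 exon bases on opposite strands in the later annotation, so their reads may not be fully separated. Aars2, the alanyl enzyme, had 19.9 and 16.4 CPM against 20.1 CPM (-0.14, SE 0.25, adjusted p = 0.820), with ratios of -0.01 (-0.23 to 0.20) for shRNA A and -0.29 (-0.53 to -0.05) for shRNA B.

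For the other 3 mitochondrial class II genes, as for Aars2, the counting interval of shRNA A over shRNA B excluded no difference. Nars2, the asparaginyl enzyme, had 17.1 and 26.9 CPM with shRNAs A and B against 24.7 CPM in the control library (log2 fold change -0.17, SE 0.27, adjusted p = 0.793), with ratios of -0.53 (-0.74 to -0.32) for shRNA A and 0.12 (-0.08 to 0.32) for shRNA B. Fars2, the phenylalanyl enzyme, had 16.0 and 22.5 CPM against 19.2 CPM (0.001, SE 0.26, adjusted p = 0.999), with ratios of -0.26 (-0.49 to -0.03) for shRNA A and 0.23 (0.004 to 0.45) for shRNA B. The control value lay between the shRNA values in Nars2 and Fars2. Pars2, the prolyl enzyme and one of the least read members, had 112 and 53 reads against 87, or 5.57 and 3.36 CPM against 5.42 CPM (-0.27, SE 0.41, adjusted p = 0.786). Its ratios were 0.04 (-0.38 to 0.46) for shRNA A and -0.69 (-1.21 to -0.18) for shRNA B, so shRNA A was close to control and shRNA B below it.

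Enzymes for the same amino acid were also compared inside each library, where the ratio of cytosolic to mitochondrial reads needs no scaling. There are 13 such pairs. Against the control library, this ratio was lower in 12 of 13 pairs with shRNA A and in 13 of 13 with shRNA B, counting those whose 95% exact interval excluded no change, and it was higher in 0. These intervals cover counting error only, and the count sets no minimum size of change. It includes the histidyl pair at -0.28 with shRNA B, of which neither gene was called by the edgeR test. No share over other gene pairs was computed. Over the pairs, the median log2 change was -1.24 for shRNA A and -1.13 for shRNA B. Sars and Sars2 changed most, with 31.0 and 32.2 Sars reads per Sars2 read in the shRNA A and shRNA B libraries against 155 in the control library. The log2 change was -2.33 (-2.82 to -1.85) for shRNA A and -2.27 (-2.79 to -1.77) for shRNA B. Of this pair, Sars passed the edgeR test and Sars2 did not.

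In Iars and Iars2 the order of the read counts turned round, with 0.810 and 0.830 Iars reads per Iars2 read with shRNAs A and B against 2.61 in the control library. Per kilobase of exons the order did not turn. Iars had 19.1 and 18.6 CPM per kilobase with shRNAs A and B, and Iars2 had 14.0 and 13.3. The count of Iars2 is also uncertain because 22.9% of its exon length overlaps Rab3gap2. The log2 change of this pair was -1.69 (-1.80 to -1.57) for shRNA A and -1.65 (-1.78 to -1.53) for shRNA B. Wars and Wars2 stood at 7.88 and 7.60 with shRNAs A and B against 23.0 in the control library. At the other end, Rars and Rars2 stood at 4.72 and 5.12 against 7.12, and Hars and Hars2 at 2.81 and 2.29 against 2.78. The interval of the Hars pair included no change with shRNA A (-0.21 to 0.23) and lay just below it with shRNA B (-0.51 to -0.05).

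**Figure D4:**
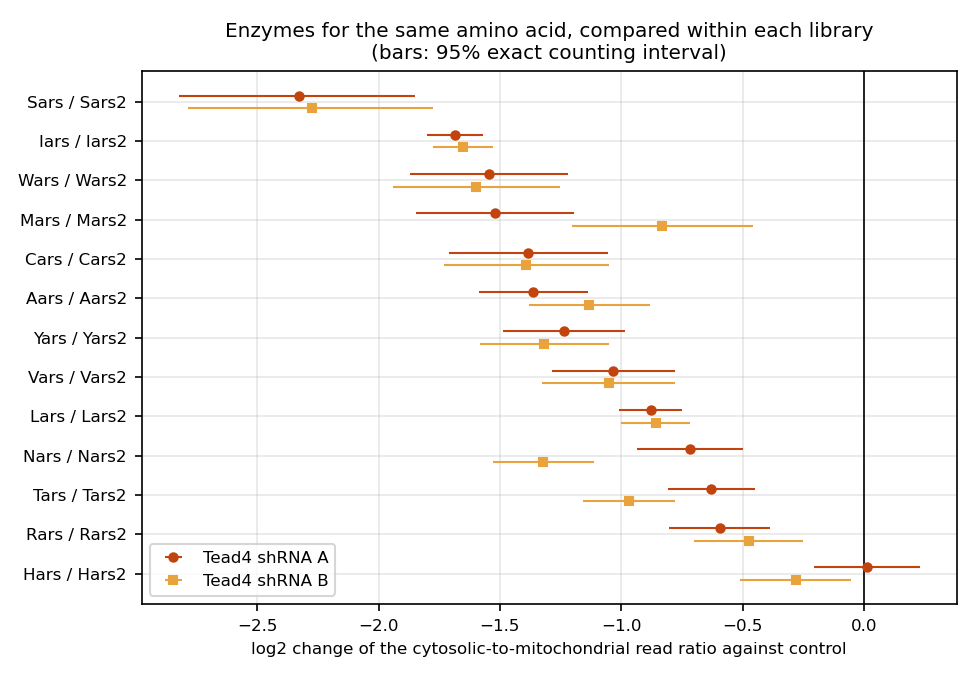
Log2 change, against the control library, of the ratio of cytosolic to mitochondrial reads for 13 amino acids with a gene of each kind, with Tead4 shRNA A (circles) and shRNA B (squares) and 95% exact counting intervals. Points run from -2.33 and -2.27 for the seryl pair to 0.01 and -0.28 for the histidyl pair.

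Other genes of tRNA charging and translation were counted in the same fit, in which 4.48% of all tested genes fell and 5.34% rose. Of 16 tested genes that assist, edit or stand in for synthetases or handle tRNA, 2 fell and 0 rose (median log2 fold change -0.16). Xpot, the exportin that carries tRNAs out of the nucleus, fell to 89.1 and 80.5 CPM with shRNAs A and B against 260.4 CPM in the control library (-1.62, SE 0.22, adjusted p = 2.71e-05). Ptrh2, a peptidyl-tRNA hydrolase, had 19.0 and 18.2 CPM against 32.9 CPM (-0.83, adjusted p = 0.0252). Genes of mitochondrial translation had 1 of 83 tested members lower and 0 higher, with a median of -0.08. The 1 gene was Mrps18b, a subunit of the mitochondrial ribosome, at 19.6 and 26.7 CPM against 44.2 CPM. Cytosolic ribosomal protein genes, taken by their Rpl and Rps symbols, had 0 of 77 lower or higher at a median of -0.03. That list also holds rows such as the pseudogene Rpl32-ps, and Rps19bp1, which is not a ribosomal protein gene. Some of its members had few reads, such as Rps2 with 65 and 70 reads with shRNAs A and B against 60 in the control library. The medians of both lists lay near the median of all tested genes.

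Genes for amino acid supply and for the integrated stress response were mostly lower. Of 13 amino acid synthesis genes, 9 fell and 0 rose (median -1.29), and of 10 tested amino acid uptake genes, 7 fell and 0 rose (median -1.17). Psat1, an enzyme of serine synthesis, had 144 and 176 CPM with shRNAs A and B against 390.1 CPM in the control library. Asns, which makes asparagine, had 43.1 and 60.2 CPM with shRNAs A and B against 283 CPM in the control library. Slc38a2, a transporter of small neutral amino acids, had 457 and 461 CPM against 965 CPM. Slc7a5, a transporter of large neutral amino acids including leucine, had 149 and 134 CPM against 651 CPM. In the integrated stress response list, 10 of 11 genes fell and 0 rose (median -2.55). Atf4 itself had 159.6 and 174 CPM against 974 CPM (-2.55, adjusted p = 8.98e-08). These lists were chosen with earlier results of the same data known and are not independent evidence of a direction.

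**Figure D5:**
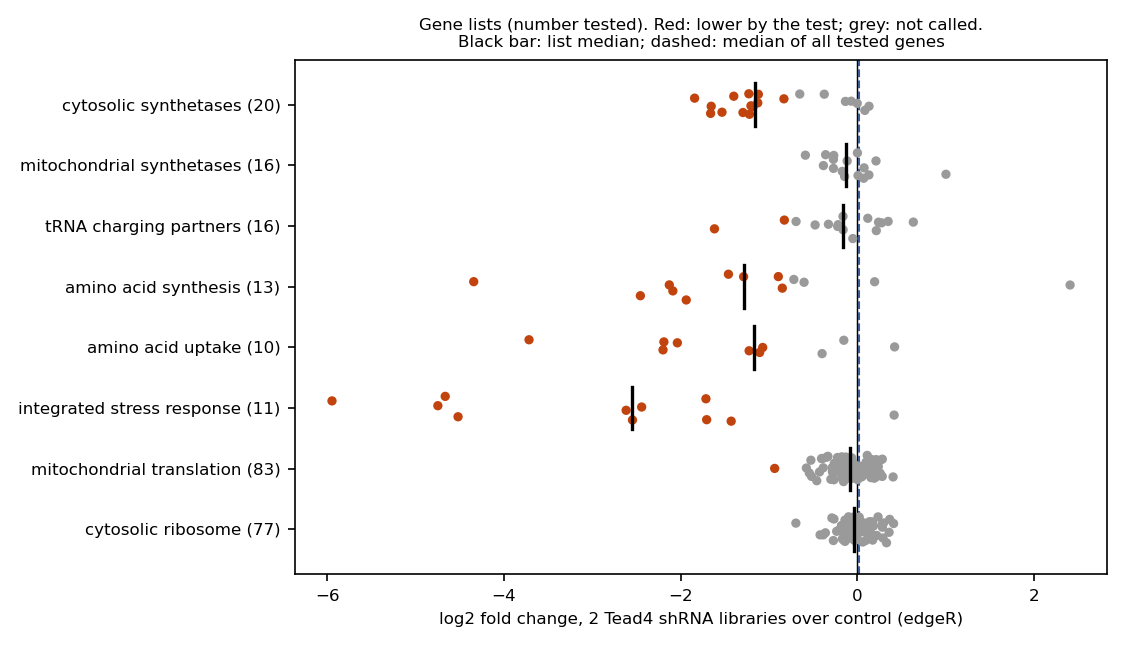
Log2 fold change (2 Tead4 shRNA libraries over the control library, edgeR) of each tested gene in 8 lists, with list medians as black bars and the median of all tested genes as a dashed line; red points are genes called lower. Cytosolic synthetases centre on -1.15, mitochondrial synthetases on -0.13 and the cytosolic ribosome list, taken by symbol, on -0.03.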

How the data were processed

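Single-end reads from 3 libraries of polyadenylated RNA were analysed. The authors' deposited table gave raw read counts per Ensembl gene, and a score beside each, which the file header calls normalized. Each deposited score equalled the raw count times 1 factor per library (0.801 for shRNA A, 1.02 for shRNA B and 1.00 for control), rounded, with 0 exceptions. Per the submitters' processing notes, TopHat 1.0.12, Cufflinks 0.8.2, DESeq and mm9 were used, with no role given; the counting program and annotation release are not given in the sources used here.

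Raw counts were fitted in R 4.3.3 with edgeR 4.0.16: filterByExpr (14478 genes), TMM factors (1.01, 1.01 and 0.979 for shRNA A, shRNA B and control), a quasi-likelihood F test of the 2 Tead4 shRNA libraries against the control library, 1 residual degree of freedom, and Benjamini-Hochberg adjustment over all tested genes at 0.05. SE was derived from the fold change and its F statistic. The biological coefficient of variation was 16.4%, estimated from 2 libraries with different shRNAs. Ratios of 1 library to the control library carry exact Clopper-Pearson 95% intervals, pair ratios exact conditional ones (scipy 1.17.1 gave the shares' intervals). Alternatives used RLE, upper-quartile and total-count scaling, no filter, DESeq2 1.42.0, limma-voom 3.58.1 and edgeR's newer quasi-likelihood method. The edgeR script was tested on simulated data. All 36 members are named; other genes were named for their role or as the called list members with most CPM. The members and lists were chosen with earlier results of these data known. Exon lengths and overlaps came from GENCODE M21 by Ensembl identifier, used for no coordinates. A few items are not reported here.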

Additional observations from a re-analysis of the deposited data

Results flagged for a closer look

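Fars2, the mitochondrial phenylalanyl enzyme, stood below the control library with shRNA A and above it with shRNA B. The log2 ratios were -0.26 (counting interval -0.49 to -0.03) for shRNA A and 0.23 (0.004 to 0.45) for shRNA B. Each shRNA has 1 library, so this difference was not tested over replicates. In the later annotation, Fars2 shares 8.72% of its exon length with Nrn1 and 2.00% with Lyrm4, both on the opposite strand. The part of their reads in the Fars2 count was not tested. With TMM scaling, in no other of the 36 genes did the 2 intervals lie on opposite sides of 0. For Fars2 this depends on the scaling, which moves all genes of a library alike. The cytosolic median with shRNA B moved from -1.164 to -1.171 with the authors' factors. With total counts the one with shRNA A moved from -1.156 to -1.110. Shifts of these sizes would bring the Fars2 interval of the same shRNA to include 0. Nars2 differed by more between the shRNAs (log2 of shRNA A over shRNA B -0.65, interval -0.86 to -0.44), but its interval with shRNA B included 0.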

How the results depend on the processing

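Over 7 alternative scalings, filters and tests, 251 of 252 calls of single synthetase genes were as in the edgeR fit. The exception was Rars, which the newer quasi-likelihood method called lower (adjusted p = 0.0466). All 7 gave 0 mitochondrial genes in either direction. DESeq2 called 374 genes lower and 464 higher over the whole table, against 649 and 773, and it called 1 of the charging partners and 0 mitochondrial translation genes lower. The cytosolic median log2 fold change was -1.16 with RLE scaling, -1.11 with upper-quartile scaling, -1.11 with total counts, -1.15 with no filter and -1.16 with DESeq2. With 1 shRNA library alone it was -1.16 for either, a value with no test. Without Gars and Kars the cytosolic share of synthetase reads was 85.1% with shRNA A, 85.1% with shRNA B and 91.5% in the control library. Without Gars and Iars2, the genes with most reads, it was 89.8%, 89.6% and 93.9%. With a final T added to the motif, a setting chosen after seeing the data, 3 of 12 cytosolic genes held it, against 1.08% of all genes with a window, tested or not. Sars2, with 52 control reads and an SE of 0.40, did not pass the test at a log2 fold change of 1.003. Iars2 and Lars2, with SEs of 0.22 and 0.21, were as precise as the cytosolic genes and were not called. They were the most read mitochondrial genes, and the count of Iars2 is uncertain because of its overlap with Rab3gap2. The median SE was 0.26 for the mitochondrial genes against 0.22 for the cytosolic genes.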
